A study of Mus musculus with 30 samples.

Results

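Sox9, Ctsc, Cyp2f2, Hal, Sds, Gls2, Cdh1, Krt8, Krt18 and Spp1 are 10 genes listed here as periportal or bile duct markers of the mouse liver. Members were all probes of the array that the platform annotation gives to 1 of these symbols, kept for testing where 7 or more of the 30 arrays had a detection p-value under 0.05. Of the 10 genes, 6 had a named probe, with 8 probes in all among the 24613 of the array, and 7 of those 8 passed, against 10525 probes kept in all. Hal, Sds, Gls2 and Spp1 had no probe under their symbol and were not analysed here. The second probe of Krt8 was detected on 0 of 14 germfree and 0 of 16 conventional arrays and was not tested, while the other 7 were detected on all 30.

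The liver RNA came from 14 germfree mice, which carry no microbes, and 16 conventional mice, which carry a gut microbiota. Both groups were C57BL/6J mice fed a high-fat diet for 11 weeks and deprived of food for 10 h before the liver was taken. The question the labels set is how the livers of mice without microbes differ under this diet, and microbial status was the only factor. Each array held biotin-labelled cRNA of 1 liver, hybridized to an Illumina array read in 1 colour. The p-values below measure the spread between these animals. No cage, chip or processing batch was given in the sources used here, so any that went with the group cannot be told apart from microbial status.

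Blood enters the liver lobule at the portal tract, beside the bile ducts, and leaves at the central vein, and hepatocytes along this path express different enzymes. Periportal hepatocytes lead in gluconeogenesis, urea formation and amino acid breakdown, while pericentral hepatocytes lead in glutamine synthesis, bile acid synthesis and much of xenobiotic oxidation. Sox9 is a transcription factor of bile duct cells that a small population of hepatocytes next to the portal tract also expresses. Keratins 8 and 18 form the intermediate filament of hepatocytes, so Krt8 and Krt18 by themselves mark neither a zone nor the ducts. Bile duct cells make keratins 7 and 19 in addition.

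Signal and detection were close in both groups. Mean raw signal was 247 ± 73.6 intensity units in germfree livers and 245 ± 67.4 in conventional livers (SD, n = 14 and 16, permutation p = 0.938, two-sided), and the detected share of probes was 38.4% ± 1.6 and 38.4% ± 1.94 (permutation p = 0.924). Correlations between arrays ran from 0.961 to 0.99, and no arrays were identical. The number of arrays limits the precision. The labelled tissue carried its markers, with 8 of 10 core hepatocyte genes tested, although the probes of albumin (Alb) and the fibrinogen chain Fgb did not pass the filter. The bile duct label was borne out only in part. The defining markers Krt19, Epcam, Cftr and Cd24a were each detected on 0 of 14 germfree and 0 of 16 conventional arrays, and Krt7 on 6 and 8. Of the duct markers tested, 5 were detected on all 30 arrays, the cystic kidney gene Pkhd1, Aqp1, Anxa4, Onecut2 and Slc4a2, and Krt23 was detected on 13 germfree and 13 conventional arrays. Sox9, Krt8 and Krt18 are read here as levels in whole liver.

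Sox9 and Ctsc were lower in germfree livers, and the other 4 measured genes did not pass the test. By the probe with the highest mean for each gene, 2 of 6 genes (33.3%) passed the threshold, both lower in germfree livers. Of all 10525 probes tested, limma called 603, or 5.73%, in either direction, of which 258, or 2.45% of those tested, were lower in germfree livers. At an unadjusted p under 0.05 3 of the 6 genes were counted, against 1902 probes, or 18.1%, in all. The members, and the lists below, were chosen with earlier results of these data known, so their shares are a description and not a test. The shares of members count genes, and those over the array count probes. The median log2 change of the 6 genes, germfree minus conventional, was -0.13, against 0 over the 9084 genes tested, and 4 of the 6 were below 0. The median size of the change regardless of sign was 0.14 over the 6 genes and 0.09 over all genes. In whole liver, fewer cells of a type and less RNA per cell cannot be told apart.

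Sox9 had the largest change of the 6. On the log2 scale of normalized signal its lowest, median and highest values were 7.07, 8.09 and 8.69 in germfree livers, against 8.20, 8.71 and 9.82 in conventional livers. All 14 germfree livers lay below the conventional mean, 9 of them below every conventional liver, and 8 of 16 conventional livers lay above every germfree liver, so the groups overlapped only in part. The means were 8.03 ± 0.44 in germfree and 8.86 ± 0.47 in conventional livers (SD, n = 14 and 16). Sox9 was 1.78-fold lower in germfree livers (log2 change -0.83 ± 0.16, SE, 95% interval -1.15 to -0.51, limma adjusted p = 0.000736 over all probes). The fall was 19th in size among the named genes. Raw signal, before any correction, had a median of 316 intensity units in germfree and 483 in conventional livers, with ranges of 98.7 to 629 and 145 to 1250. Scaling the arrays by their medians in place of quantile normalization kept the size of the change (-0.82) but not the call (limma adjusted p = 0.0728). That scaling raised the median standard error over all probes to 0.139, against 0.0888, and left 68 calls of 603.

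**Figure D1:**
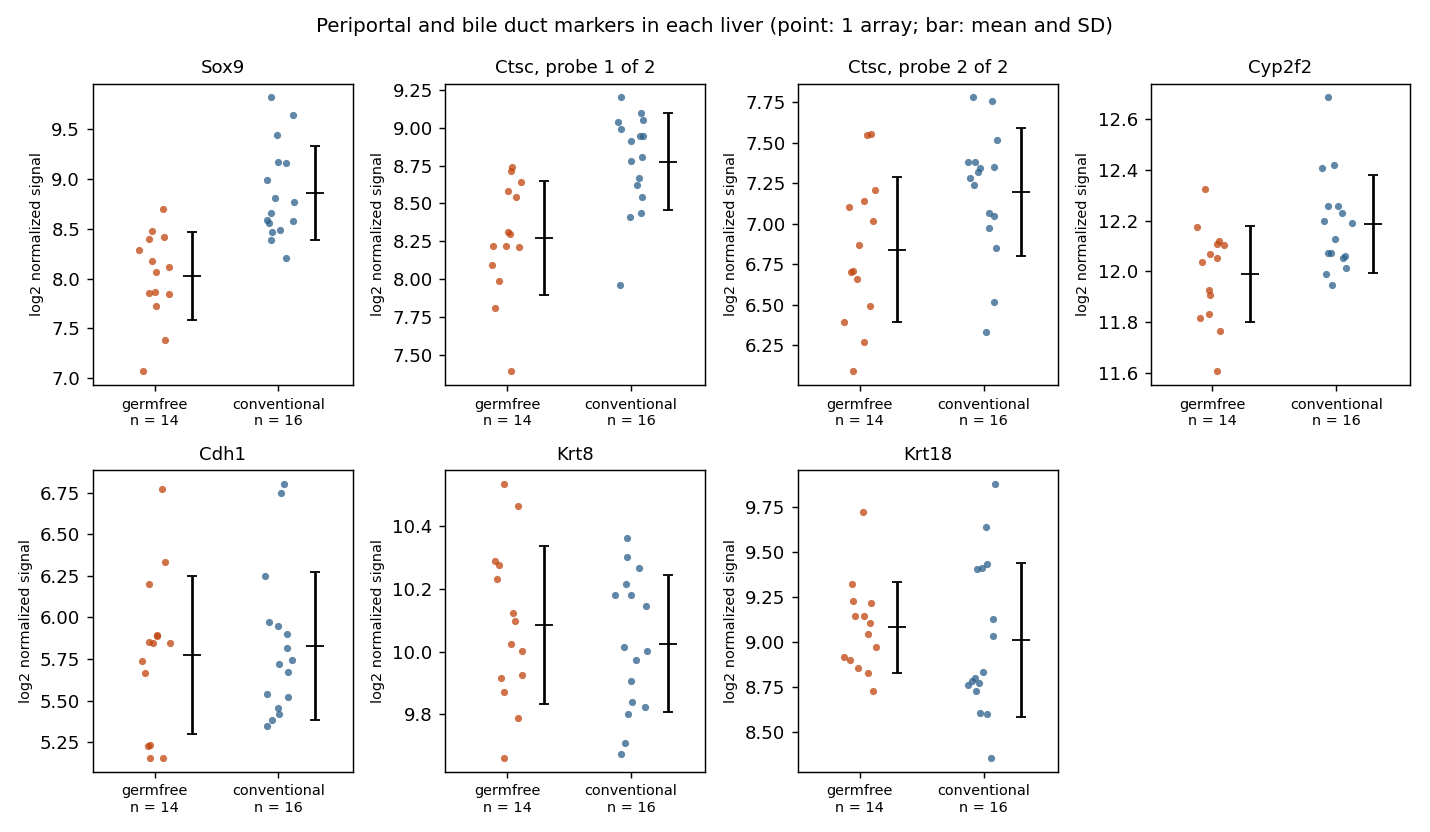
Log2 normalized signal (vertical axis, a separate range in each panel) of the 7 probes in 14 germfree and 16 conventional livers, with 1 point per array and a bar for the mean and SD. Sox9 and the first Ctsc probe sit lower in germfree livers, with 9 and 2 germfree livers below every conventional liver. The Cdh1, Krt8 and Krt18 groups lie over each other for the most part.

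Ctsc encodes cathepsin C, a lysosomal peptidase that also activates the serine proteases of immune cell granules. The start of the gene is shown because Ctsc is the other gene that passed the test. RefSeq places it on the forward strand at chr7:88277835-88278134 (GRCm38.p6), a window of 250 bases before to 50 after the annotated start. Windows were searched on both strands for the SOX core letters AACAAT and ACAAAG, the TATA box TATAAA and the GC box GGGCGG. Capitals mark a match, here 1 GC box on the reverse strand at position -16 from the start. Of 32851 mouse windows of this length, 35.7% hold GGGCGG, 13.6% TATAAA, 18.7% ACAAAG and 10.7% AACAAT, and a match is a description of letters, not of binding.
Ctsc: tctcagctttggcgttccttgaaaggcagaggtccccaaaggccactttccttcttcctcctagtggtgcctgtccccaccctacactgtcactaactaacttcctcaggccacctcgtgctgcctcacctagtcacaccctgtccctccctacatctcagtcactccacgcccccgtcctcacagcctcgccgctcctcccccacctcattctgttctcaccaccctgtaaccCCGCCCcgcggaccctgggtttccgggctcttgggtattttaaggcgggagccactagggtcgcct
Neither SOX core nor the TATA letters were in this Ctsc window. RefSeq promoter entries for Sox9 and Cdh1 were not used here.

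Ctsc was measured by 2 probes, of which the first, with the higher mean, stands for the gene. The first probe had lowest, median and highest log2 values of 7.39, 8.26 and 8.74 in germfree livers, against 7.96, 8.86 and 9.20 in conventional livers. Every germfree liver lay below the conventional mean but only 2 lay below every conventional liver, while 10 of 16 conventional livers lay above every germfree one. Means were 8.27 ± 0.38 in germfree and 8.78 ± 0.32 in conventional livers (SD, n = 14 and 16). By this probe Ctsc was 1.42-fold lower in germfree livers (log2 change -0.51 ± 0.12, SE, 95% interval -0.75 to -0.26, limma adjusted p = 0.0085). The second probe ran from 6.09 to 7.55 with a median of 6.79 in germfree livers, and from 6.33 to 7.78 with a median of 7.30 in conventional livers. Its groups overlapped almost throughout, and its log2 change of -0.36 ± 0.14 (SE) did not pass (limma adjusted p = 0.161). Both probes pointed down, with the second one past the threshold only under array weights (-0.42, limma adjusted p = 0.0451). Within groups the probes correlated at r = 0.614 over 30 livers (Spearman's rho 0.565, permutation p = 0.00048 for r). Without the 2 livers of each group farthest from its median of the first probe r was 0.541. Under median scaling the first probe was also no longer called (-0.49, limma adjusted p = 0.502).

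Cyp2f2 is a cytochrome P450 of periportal hepatocytes. It had lowest, median and highest log2 values of 11.61, 12.04 and 12.32 in germfree livers, against 11.95, 12.16 and 12.69 in conventional livers. Of the germfree livers, 13 of 14 lay below the conventional mean and 6 below every conventional liver, while 3 conventional livers lay above every germfree one. The log2 change of -0.20 ± 0.07 (SE, 95% interval -0.35 to -0.05) did not pass after adjustment (limma adjusted p = 0.11, p = 0.0101 before it).

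Cdh1 encodes E-cadherin, the adhesion molecule of epithelial junctions, which is richer in periportal than in pericentral hepatocytes. Its signal was close to background, with a highest detection p-value of 0.0255, so a change in it is measured less well. Lowest, median and highest log2 values were 5.16, 5.85 and 6.77 in germfree livers, against 5.35, 5.73 and 6.80 in conventional livers. The ranges covered each other for the most part. Of 14 germfree livers 4 lay below every conventional liver, and 1 conventional liver lay above every germfree one. The log2 change was -0.06 ± 0.16 (SE, 95% interval -0.37 to 0.26, limma adjusted p = 0.906).

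The keratin genes Krt8 and Krt18 are shown by their starts because they encode obligate partners of 1 filament, lie side by side, and differed in how they followed Sox9. RefSeq lists 2 genes between them on the same chromosome, 0 of them protein coding. The Krt18 window is on the forward strand at chr15:102027966-102028265 (GRCm38.p6) and the Krt8 window on the reverse strand at chr15:102004293-102004592, each printed in the direction of the gene. Capitals mark 1 ACAAAG match on the reverse strand of Krt18 at position -203, and in Krt8 the overlapping TATAAA matches of both strands at positions -3 and -1.
Krt18: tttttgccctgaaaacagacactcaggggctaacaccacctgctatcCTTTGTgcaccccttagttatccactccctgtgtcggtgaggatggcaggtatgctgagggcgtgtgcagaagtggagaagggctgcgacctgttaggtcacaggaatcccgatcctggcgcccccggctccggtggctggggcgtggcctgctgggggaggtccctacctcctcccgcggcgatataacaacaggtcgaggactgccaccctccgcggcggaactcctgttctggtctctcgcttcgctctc
Krt8: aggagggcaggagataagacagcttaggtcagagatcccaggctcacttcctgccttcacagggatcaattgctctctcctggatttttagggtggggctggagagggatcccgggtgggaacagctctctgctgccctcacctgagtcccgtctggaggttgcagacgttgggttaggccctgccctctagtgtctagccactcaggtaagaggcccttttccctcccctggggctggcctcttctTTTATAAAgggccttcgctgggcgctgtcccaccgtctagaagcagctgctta
The window of Krt18 was 61.3% G and C and that of Krt8 58%. AACAAT was in neither, and GGGCGG was in neither.

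Neither keratin passed the test between the groups. Krt8 had lowest, median and highest log2 values of 9.66, 10.06 and 10.53 in germfree livers, against 9.67, 10.01 and 10.36 in conventional livers. Its groups overlapped throughout, and the log2 change was 0.06 ± 0.09 (SE, 95% interval -0.11 to 0.23, limma adjusted p = 0.792). Krt18 had lowest, median and highest log2 values of 8.73, 9.07 and 9.72 in germfree livers, against 8.36, 8.82 and 9.88 in conventional livers. All germfree values lay inside the conventional range, and the log2 change was 0.07 ± 0.12 (SE, 95% interval -0.18 to 0.32, limma adjusted p = 0.836). The SD of Krt18 was 0.25 among germfree and 0.43 among conventional livers, a ratio of 0.589 that was not tested.

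Sox9 and Krt18 moved together from liver to liver although of these genes Sox9 alone passed the test between the groups. Correlations were computed on deviations from each group's mean, so that the group difference does not enter, with 5 genes set against Sox9 and Benjamini-Hochberg adjustment over those 5. For Krt18, r was 0.667 over 30 livers (permutation p = 0.00011, adjusted 0.00055) and rho was 0.646 (adjusted p = 0.00115). Leaving out the 2 livers of each group farthest from its median of Sox9 gave r = 0.613. This r kept its call in all 12 other settings computed, between 0.613 and 0.844, and in all 30 fits that left out 1 liver.

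The correlation of Sox9 with Krt18 was lower among germfree than among conventional livers. In 14 germfree livers r was 0.313 (rho 0.292, permutation p = 0.275, adjusted 0.458), or 0.196 without the 2 outermost livers. In 16 conventional livers r was 0.862 (rho 0.882, permutation p = 7e-05, adjusted 0.00035), or 0.843 without the 2 outermost livers. The difference of r, germfree minus conventional, was -0.549, with a permutation p of 0.005 from 10000 permutations of the group label and 0.025 after adjustment over 5 genes. The difference did not hold under every setting. It was no longer called by Spearman's rho (-0.59, adjusted p = 0.0665), without the 2 outermost livers (-0.646, adjusted p = 0.0665), under median scaling (-0.247, adjusted p = 0.43) or its form over probes seen on every array (-0.481, adjusted p = 0.074), or without any 1 of germfree livers 4, 10, 11 and 14 or conventional liver 11, while its sign held in each. The smaller spread of Krt18 among germfree livers stands beside the lower r, and its part in the difference was not tested.

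**Figure D2:**
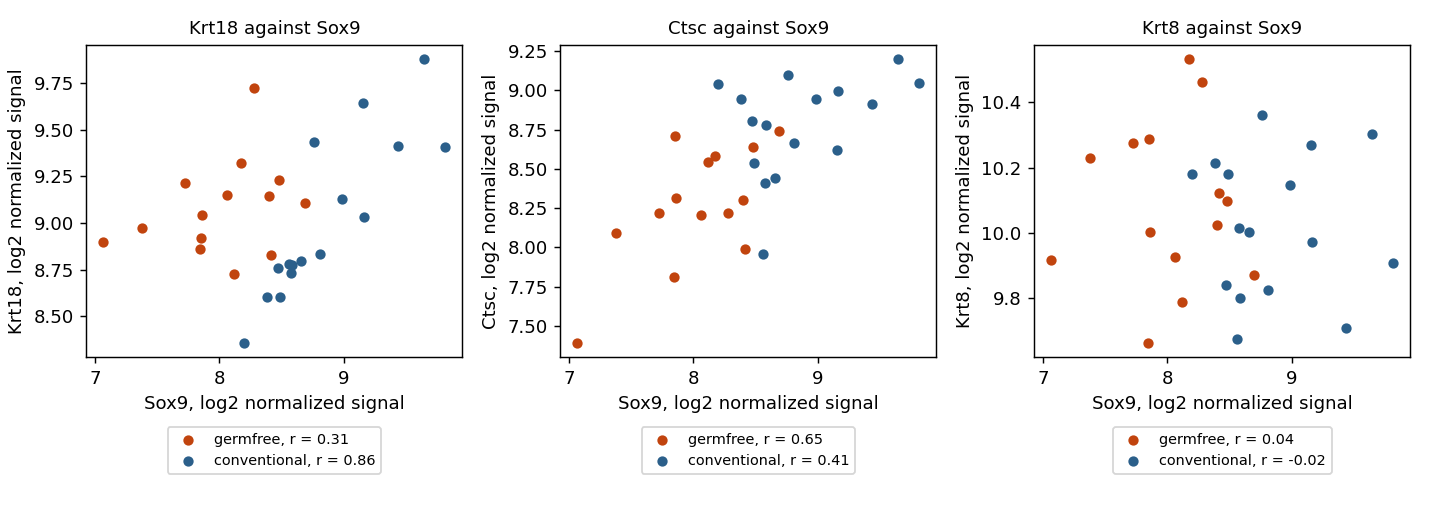
Krt18, Ctsc and Krt8 (vertical axes) against Sox9 (horizontal axis), all in log2 normalized signal, with 1 point per liver for 14 germfree and 16 conventional livers. Krt18 climbs less with Sox9 among germfree livers (r = 0.313) than among conventional ones (r = 0.862), Ctsc leans on a germfree liver low in both genes, and Krt8 shows no slope in either group.

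Ctsc followed Sox9 less firmly. Its within-group r was 0.524 (permutation p = 0.0034, adjusted 0.0085), with 0.653 in germfree livers (permutation p = 0.0115, adjusted 0.0575) and 0.407 in conventional livers (permutation p = 0.118, adjusted 0.295). Spearman's rho was 0.422 (adjusted p = 0.061). Without the 2 outermost livers of each group r was 0.235 and was no longer called (adjusted permutation p = 0.654), although leaving them out also narrows the range of Sox9. Germfree liver 3, the lowest of all in both Sox9 and Ctsc, was enough to lose the call when left out (r = 0.405, adjusted p = 0.0861). The second Ctsc probe gave r = 0.482 with Sox9 (rho 0.496), with 0.44 in germfree and 0.526 in conventional livers. Without the 2 outermost livers of each group it gave 0.336. The difference of r between groups was 0.246 (adjusted permutation p = 0.709).

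Cyp2f2, Cdh1 and Krt8 had no relation with Sox9 past the threshold. The within-group r was 0.143 for Cyp2f2 (adjusted permutation p = 0.575), -0.182 for Cdh1 (adjusted 0.573) and 0.00666 for Krt8 (adjusted 0.973). Median scaling of the arrays changed this, with r = 0.698 for Cyp2f2 and 0.619 for Krt8, both past the threshold. The replicate block also put Cyp2f2 past it (r = 0.536, adjusted p = 0.0107), although the numbers were not shown to pair the livers. Among the 10 remaining pairs of the 6 genes none passed after adjustment over those pairs (lowest adjusted permutation p = 0.116). The filament partners Krt8 and Krt18 had a within-group r of 0.378, with 0.646 in germfree livers (adjusted p = 0.114) and 0.252 in conventional livers. Ctsc and Cdh1 had -0.392, Cdh1 and Krt8 -0.384, and Cyp2f2 and Cdh1 0.373.

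**Figure D3:**
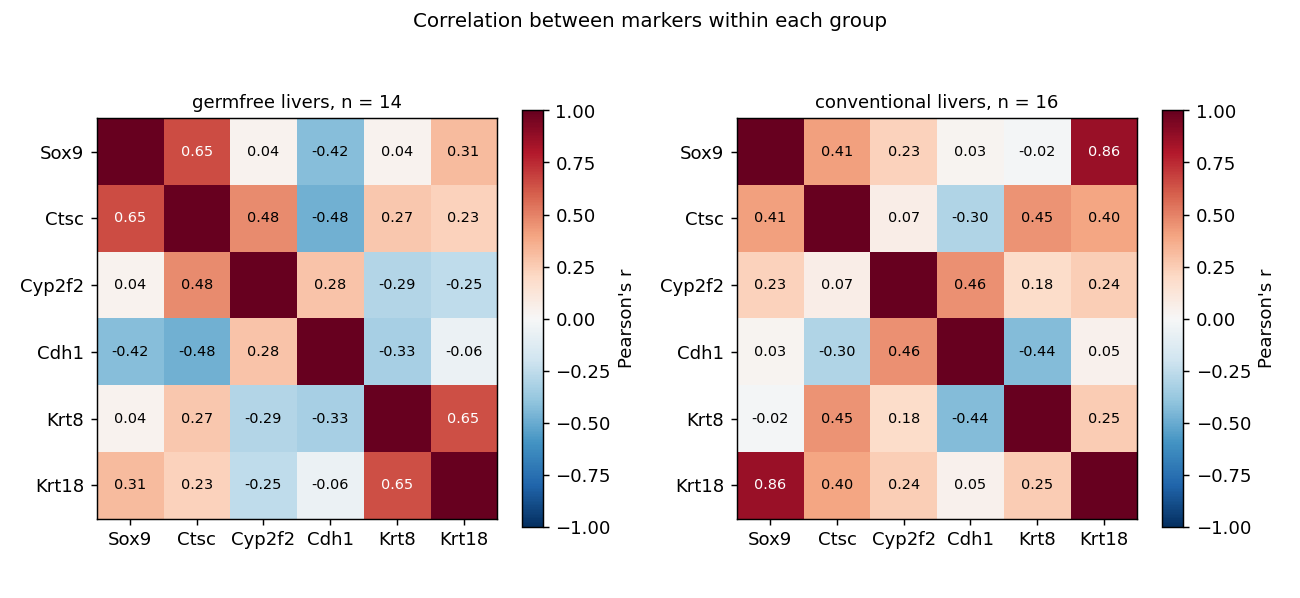
Pearson's r between the 6 genes (both axes) among 14 germfree livers on the left and 16 conventional livers on the right, with colour from -1 to 1. The Sox9 and Krt18 cell is 0.31 in germfree and 0.86 in conventional livers, while the Krt8 and Krt18 cell is 0.65 in germfree and 0.25 in conventional livers.

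Against all named genes, Krt18 stood near but not at the top of those that varied with Sox9. Over 7838 named genes the median within-group r with Sox9 was 0.00736, with quartiles of -0.185 and 0.219. By this r Krt18 ranked 109, Ctsc 366, Cyp2f2 2585, Krt8 3931 and Cdh1 5858. The genes with the highest r were Litaf, a membrane protein of late endosomes (0.842), the synaptotagmin Syt12 (0.838), Ngdn (0.837), the acute-phase serum amyloid Saa3 (0.818), the crystallin Crybb3 (0.814) and the endonuclease subunit Eme1 (0.813). The lowest were Cyp7a1, which commits cholesterol to bile acids (-0.839), the outer mitochondrial membrane cytochrome Cyb5b (-0.834) and the mitochondrial carbonic anhydrase Car5a (-0.804). These 9 are a description over 30 livers that share arrays and normalization. Of them only Crybb3 passed the test between groups (log2 change -0.73, limma adjusted p = 0.0422). Saa3 had a log2 change of -1.13 (limma adjusted p = 0.118) and Cyp7a1 of 0.48 (limma adjusted p = 0.553).

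Of the periportal genes beyond the members, 1 passed the test, a share near the 5.73% called over all probes. The list held 24, of which 18 were tested, 0 rose and 1 fell, with a median log2 change of -0.02. The 1 was Fbp1, a gluconeogenic phosphatase, with 10.08 ± 0.14 in germfree and 10.41 ± 0.12 in conventional livers on the log2 scale (SD, log2 change -0.34 ± 0.06, SE, limma adjusted p = 0.000203). G6pc, which releases glucose in the last step of the same pathway, had a log2 change of 0.66 (limma adjusted p = 0.0557). Etnppl, a phospholyase, had -0.46 (limma adjusted p = 0.189), and Nags, which makes the activator of the urea cycle, had 0.17 (limma adjusted p = 0.223). The summed normalized signal of the list ran from 40400 to 53100 in germfree and from 37400 to 50200 in conventional livers.

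No other bile duct marker passed. Of 26 listed, 10 were tested by limma, and 0 rose and 0 fell after adjustment, with a median log2 change of 0.05. At an unadjusted p under 0.05, 3 were higher and 0 lower, against 18.1% of all probes in either direction. The smallest adjusted p-values belonged to Prom1, a membrane protein of the apical surface (0.29, limma adjusted p = 0.146), the transcription factor Onecut2 (0.16, limma adjusted p = 0.246) and the anion exchanger Slc4a2 (0.15, limma adjusted p = 0.263), each above 0. Prom1 was detected on 8 of 14 germfree and 4 of 16 conventional arrays. The summed signal ran from 1710 to 2490 in germfree and from 1600 to 2450 in conventional livers, ranges that overlapped almost throughout.

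The Notch and Hippo pathways set bile duct fate, and 1 of their tested genes passed. Of 25 listed, 10 were tested, 1 rose and 0 fell, against 5.73% of all probes called, so that a single call among so few genes is not a result about the list. The 1 was Sav1, a scaffold of the Hippo kinases, with 6.85 ± 0.24 in germfree and 6.47 ± 0.17 in conventional livers (SD, log2 change 0.38 ± 0.08, SE, limma adjusted p = 0.00174). The Hippo effector Yap1 had a log2 change of -0.14 (limma adjusted p = 0.315), the Notch target Hes1 of -0.15 (limma adjusted p = 0.381) and the Notch cofactor Rbpj of 0.16 (limma adjusted p = 0.382).

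At the other end of the lobule, 4 of 11 tested pericentral genes rose and 0 fell in limma, against 3.28% of all probes higher and 2.45% lower, with a median log2 change of 0.17. At an unadjusted p under 0.05, 5 were higher and 0 lower, against 18.1% of all probes in either direction. The 4 were the secreted ribonuclease Rnase4 (0.50, limma adjusted p = 0.000194), the glutamate transporter Slc1a2 (0.47, limma adjusted p = 0.00136), the vitamin C enzyme Gulo (0.36, limma adjusted p = 0.00157) and the cytochrome P450 Cyp1a2 (0.47, limma adjusted p = 0.00539). Glul, glutamine synthetase, the sharpest pericentral marker, had -0.39 (limma adjusted p = 0.52). Of the 8 tested core hepatocyte genes, which are not zoned markers, 2 also rose and 0 fell, so a rise was not particular to the pericentral list. They were Asgr2 (0.32, limma adjusted p = 0.00432) and Ahsg (0.27, limma adjusted p = 0.00615). Among junction and keratin genes beyond the members, 1 of 16 tested rose, a share near the 5.73% of all probes called. It was the gap junction protein Gjb1 (0.26, limma adjusted p = 0.041).

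Within groups, Sox9 ran against the mean log2 signal of 4 hepatocyte and duct lists. Its r was -0.51 with the periportal mean (adjusted permutation p = 0.024 over 48 relations of members with lists and array measures), -0.582 with the bile duct mean (adjusted 0.00592), -0.606 with the pericentral mean (adjusted 0.00592) and -0.488 with the mean of the hepatocyte core genes, which are not zoned markers (adjusted 0.0308). Spearman's rho was -0.461, -0.475, -0.485 and -0.475 in that order, and none passed after adjustment (lowest adjusted p = 0.0506). By group, r was -0.273, -0.768, -0.643 and -0.166 in germfree livers. In conventional livers it was -0.704, -0.398, -0.577 and -0.721. Such a mean gives most weight to the genes that vary most. Gene by gene, the median r with Sox9 was -0.196, -0.104, -0.146 and -0.139 in the same order. The pericentral genes ran from -0.839 for Cyp7a1 to 0.00746 for Rnase4, so the mean of a list does not stand for each of its genes. Without the 2 outermost livers of each group r was -0.27, -0.264, -0.479 and -0.343, so the periportal and bile duct relations were much weaker without those livers. Krt18 had r = -0.594 with the periportal mean (adjusted permutation p = 0.00592, rho adjusted 0.0617), -0.528 with the bile duct mean (adjusted 0.00878, rho adjusted 0.0506) and -0.637 with the pericentral mean (adjusted 0.00336, rho adjusted 0.013). Its r with the core genes was -0.384 (adjusted 0.112). Without the 2 livers of each group farthest from its median of Krt18 the first 3 were -0.533, -0.3 and -0.477. Such relations were not particular to Sox9 and Krt18. Ctsc had r = -0.661 with the bile duct mean (adjusted permutation p = 0.00336) and -0.512 with the pericentral mean (adjusted 0.024). Krt8 had -0.556 with the bile duct mean (adjusted 0.0132) and -0.493 with the periportal mean (adjusted 0.0295). Cdh1 went the other way with the core mean (0.484, adjusted 0.0311), and Cyp2f2 had none past the threshold. By rho none of these relations of Ctsc, Krt8 and Cdh1 passed.

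**Figure D4:**
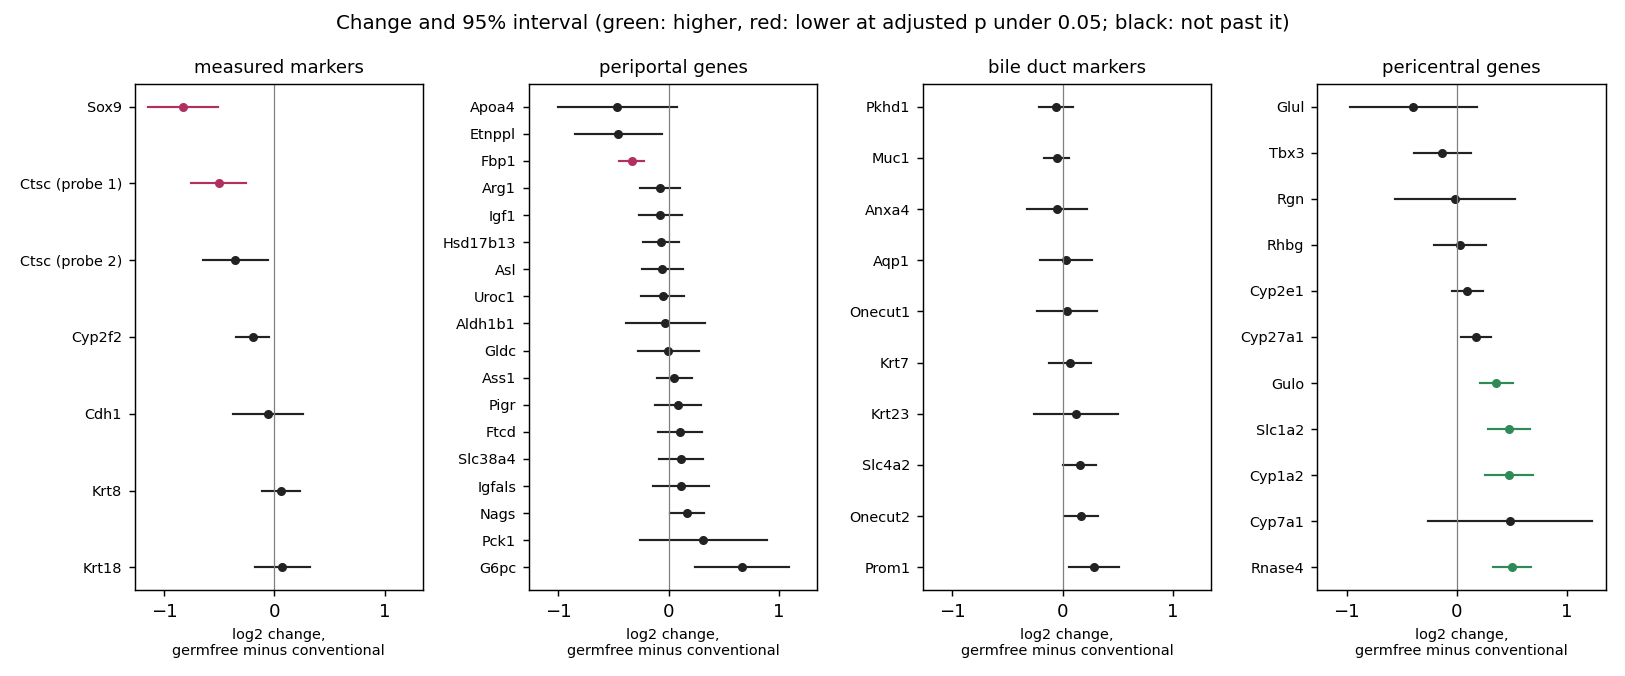
Log2 change, germfree minus conventional, with its 95% interval (horizontal axis) for the 7 member probes and for the tested periportal, bile duct and pericentral genes beyond them. Sox9, the first Ctsc probe and Fbp1 lie below 0 past the threshold, 0 of 10 bile duct genes pass, and 4 of 11 pericentral genes lie above 0 past it.

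Among 12 tested markers of macrophages, including Kupffer cells, 3 fell in germfree livers, against 2.45% of all probes lower, and 9 did not pass. Their median log2 change was -0.35, and 11 of the 12 were below 0. Their summed signal was 1390 to 2600 (median 1760) in germfree and 1580 to 3690 (median 2420) in conventional livers. Within groups their mean log2 signal had r = -0.0414 with Sox9 (permutation p = 0.831) and -0.182 with Ctsc (permutation p = 0.338). For Sox9 r was 0.066 without the 2 livers of each group farthest from its median of Sox9. For Ctsc it was -0.49 without those farthest from the median of Ctsc. Of 7 tested stellate cell and portal fibroblast markers 1 rose, and of 8 tested endothelial markers 1 rose, against 3.28% of all probes higher. A single call among so few genes is not a result about either list. Of the T, NK cell and neutrophil markers 4 were tested by limma and 0 passed. At an unadjusted p under 0.05, 2 of them were lower, against 18.1% of all probes in either direction. The summed signal of the 4 was 166 to 292 in germfree and 160 to 523 in conventional livers. All 4 had a log2 change below 0, with a median of -0.33. Their median within-group r with Sox9 was 0.474, the highest of the 11 lists, from -0.206 for the T cell receptor chain Cd247 to 0.614 for the neutrophil protein S100a9, and the part of these cells in the result was not tested. Mean raw signal of the array had r = 0.221 with Sox9 (permutation p = 0.254) and 0.413 with Ctsc (permutation p = 0.0251, adjusted 0.067 over 48 relations). With log2 mean raw signal as a covariate the log2 change was -0.83 for Sox9 (limma adjusted p = 0.000673) and -0.51 for Ctsc (limma adjusted p = 0.00444).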

How the data were processed

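Liver RNA of 14 germfree and 16 conventional mice was measured on 1 array each. The authors deposited non-normalized bead intensity per probe and array, each with a detection p-value against negative controls, per the file headers, and GenomeStudio is named without a version in the submitters' processing notes. They also deposited quantile-normalized intensity values of the same arrays, used as an alternative. The table held 33 further arrays without a sample in the labels, which were not used here.

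The neqc function of limma 3.58.1 (R 4.3.3) corrected these signals by normexp, added an offset of 16, put all arrays on common quantiles and took log2. Probes with a detection p-value under 0.05 on fewer than 7 arrays were left out. The 10525 probes left were each tested two-sided by limma, p-values were adjusted over all of them by Benjamini-Hochberg with a threshold of 0.05, and a gene was read by its probe with the highest mean. Of 24613 probes, 20984 had 1 gene symbol and 3629 were unnamed here. Correlations used 100000 permutations within groups. The procedure was tested on simulated data. Named genes were all members, and the 6 highest and 3 lowest correlates of Sox9. From the zonation, duct, pathway, junction and core lists they were those past the threshold, with up to 3 others of smallest adjusted p. The immune, stellate and endothelial lists were given mainly as counts, and a list of pancreatic and ectopic secretory genes is not reported here. Glul, Krt7, Krt23, Pkhd1, Aqp1 and Anxa4 were named after their values were seen. Alb, Fgb, Cd247 and S100a9 were named outside this rule. The members and lists were chosen with earlier results of these data known.

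Replicate numbers ran from 1 in both groups, and 14 were shared. Deviations of same-numbered livers correlated from -0.174 to 0.389, with 7 of 14 over 0.1, against a median of -0.0144 for other pairs. Nothing in the labels ties the numbers to a litter or day. The alternatives varied background correction, normalization, filter, probe summary, weights, covariates, replicate block and single arrays. Those on mean raw signal, the main axis of variation, scaling over detected probes and the 28 arrays without the block were chosen after seeing the data, except mean raw signal for the correlations. Python 3.11.15 with matplotlib 3.10.9 drew the plots.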

Additional observations from a re-analysis of the deposited data

Results flagged for a closer look

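The correlation of Sox9 with Krt18 differed between the groups by a test of the difference itself. It was 0.313 in 14 germfree and 0.862 in 16 conventional livers, a difference of -0.549 (permutation p = 0.005, adjusted 0.025 over 5 genes). Krt18 itself had a log2 change of 0.07 between the groups. The call was lost by rank correlation and without the outermost livers. It was also lost under median scaling (-0.247, adjusted permutation p = 0.43) and its form over probes seen on every array (-0.481, adjusted 0.074). Of 11 other settings 7 kept it, and 5 of 30 fits that left out 1 liver lost it.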

How the results depend on the processing

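Leaving out 1 liver at a time gave 526 to 630 called probes, 2 called members throughout, -0.882 to -0.758 for Sox9 and -0.562 to -0.439 for Ctsc. The change of Cdh1 ran from -0.133 to 0.00985 and turned positive without conventional liver 3 (0.00651) or 5 (0.00985). The r with Sox9 ran from 0.405 to 0.595 for Ctsc, 0.0511 to 0.231 for Cyp2f2, -0.25 to -0.008 for Cdh1, -0.0779 to 0.0769 for Krt8 (turned in 9 of 30 fits) and 0.613 to 0.708 for Krt18, and the difference of r for Krt18 from -0.621 to -0.444, lost without germfree liver 4 (-0.492), 10 (-0.576), 11 (-0.527) or 14 (-0.444) or conventional liver 11 (-0.51). Median scaling left 68 called probes and 0 called members, with -0.822 for Sox9 and -0.491 for Ctsc, r = 0.698 for Cyp2f2, 0.18 for Cdh1 and 0.619 for Krt8, and a difference of -0.247. Its larger standard errors are given above, and the cause was not tested. An adjusted p of 0.01 left 267 probes. Scaling over 6652 probes seen on every array kept both members and gave a difference of -0.481. Spearman's rho was 0.422 for Ctsc and -0.00705 for Krt8, with a difference of -0.59. Without the 2 outermost livers r was 0.235 for Ctsc, 0.0306 for Cdh1 and -0.0942 for Krt8, with a difference of -0.646. Without the 3 arrays under 160 in mean signal r was 0.397 for Ctsc and -0.0694 for Krt8. For Krt8 r was -0.00598 with cyclic loess, -0.0233 with mean signal and -0.249 with the main axis as a covariate.

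The replicate block on 28 arrays gave 488 probes (476 without the block on the same arrays), 2 members, -0.842 for Sox9 (limma adjusted p = 0.00162) and -0.521 for Ctsc (limma adjusted p = 0.0302), with r = 0.536 for Cyp2f2 (past the threshold), 0.257 for Cdh1, -0.0685 for Krt8 and 0.772 for Krt18. Whether the numbers pair the livers was not settled. The block gave no difference of r, and with 1 Sox9 probe no other probe could be tried. The filters do not enter the correlations. Quantile normalization assumes like signal distributions, which these arrays cannot check, and the Cdh1 probe lies near background.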

Other observations

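Krt8 followed the main axis of variation within groups, which held 15.2% of the variance of 10525 probes. Its r with that axis was 0.708 (rho 0.704), with 0.496 in germfree and 0.934 in conventional livers. Without the 2 livers of each group farthest from its median of Krt8 it was 0.626. The axis was computed from these same probes, Krt8 among them, so this r is a description and is given without a p-value. The strongest r of a named gene with the axis was -0.957. Sox9 had 0.25 with the same axis, with 0.486 in germfree and 0.0452 in conventional livers. Krt18 had 0.416, with 0.635 in germfree and 0.323 in conventional livers. Krt8 thus stood apart from Sox9 and Krt18 only among conventional livers.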
